A study of Mus musculus with 3 samples.

Results

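Cluster 9 of the authors' cell table is a group of keratinocytes, the cells that build squamous epithelium, from the mouse anorectal junction. Its members were all cells to which the deposited table gives cluster number 9, and they carry the authors' name keratinocyte. Of 37080 cells 2059 were members; the day 0 library held 596 of them, the day 7 library 1007 and the day 42 library 456. The label sets the cluster apart by the genes H19, Smoc2, Gas1, Hoxc8, Fzd10 and Tnfrsf19. All animals were C57Bl/6 mice, bought at 6 weeks of age. The day 0 mice were untreated, and the mice of day 7 and day 42 had received 3% DSS (dextran sulfate sodium, a polymer that damages the epithelium of the colon) in their drinking water for 6 days from day 0. The distal colon and anus of 5 mice were pooled for each day, digested with trypsin and cleared of dying cells by Annexin V selection, and 1 droplet 3' library was made per pool. The submitters describe the mice as highly colitic at day 7 and recovered at day 42. The days therefore have no replicates, variation between mice cannot be seen, and differences between days describe these libraries and were not tested.

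Squamous epithelium is renewed from a basal layer that is anchored to the basement membrane and expresses the keratins Krt5 and Krt14; cells that leave it switch to other keratins, which differ between epidermis, mucosa and hair follicle. H19 is an imprinted long noncoding RNA, known from fetal tissue, and the host transcript of a microRNA. Smoc2 encodes a secreted calcium-binding matrix protein of the SPARC family, Gas1 a membrane co-receptor of hedgehog ligands, Hoxc8 a homeobox factor of the Hox C cluster, Fzd10 a Wnt receptor of the Frizzled family and Tnfrsf19 (also called Troy) a receptor of the tumour necrosis factor receptor family. Wnt, hedgehog and bone morphogenetic protein (BMP) signals are known for their part in patterning skin and its appendages, and Hox genes for recording position along the body.

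The mature microRNAs within H19 are shown because the first marker is their host transcript. H19 lies on the minus strand at chr7:142575529-142578143 (GRCm38, GENCODE M21). Both mature sequences, from RefSeq (GRCm38.p6), lie inside it, at chr7:142577078-142577099 (3p arm) and chr7:142577112-142577133 (5p arm), minus strand. They are written 5′ to 3′ with the seed, bases 2 to 8, in capitals. The arms have different seeds. The libraries prime on poly(A) tails and count the host transcript, not the mature microRNAs.
mmu-miR-675-3p: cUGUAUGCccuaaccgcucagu
mmu-miR-675-5p: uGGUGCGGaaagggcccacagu

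The other markers are protein-coding genes of the same annotation. Smoc2 lies on the plus strand at chr17:14279506-14404790, Gas1 on the minus strand at chr13:60174405-60177365, and Hoxc8 on the plus strand at chr15:102990607-102994111. Fzd10 lies on the plus strand at chr5:128600844-128604093 and Tnfrsf19 on the minus strand at chr14:60963875-61046490. Reads could be shared with overlapping genes for Hoxc8, whose model overlaps that of Hoxc5 on the same strand. Smoc2, Gas1 and Tnfrsf19 overlap genes on the opposite strand, and Fzd10 overlaps none. Whether the counting used strand is not given in the sources used here, so reads of opposite-strand partners may not be told apart either.

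The 3 libraries gave cluster 9 totals of 5102099, 12744202 and 2176910 unique molecular identifiers (UMIs, captured molecules), in the order day 0, day 7 and day 42 that is kept below. A median cell held 7747, 11748 and 4417.5 UMIs, so the day 42 cells were the shallowest. The other keratinocytes (clusters 1, 3, 4, 5, 8, 12, 13, 17 and 26) had medians of 9591, 11369.5 and 6692 UMIs. The median mitochondrial share was between 9.21% and 9.65% of UMIs in cluster 9 on the 3 days. Of all cell barcodes, 139 occurred in more than 1 library, 9 of them with a cell in cluster 9, and none joined cells of cluster 9 in different libraries.

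All 6 markers were higher in cluster 9 than in the other keratinocytes on every day, by at least 2-fold. Levels are UMIs summed over the cells of the cluster, scaled to counts per 1000000 (CPM), and differences are log2 ratios with 10 CPM added to both sides, which understates changes of low genes. A gene was called when this ratio was at least 2-fold in size, among genes with at least 5 CPM on either side. By this rule 1.53% of 10248 genes were higher in cluster 9 than in the other keratinocytes at day 0, 1.2% of 9979 at day 7 and 2.96% of 10139 at day 42. The clusters were made from these same genes, so comparisons with other keratinocytes are a description only. The make-up of the other keratinocytes also differed between the days. Cluster 1 made up 13.4% of all keratinocytes at day 0 and 38.2% at day 42, and cluster 5 made up 2.62% and 27.0%. With equal weight to each other cluster, 178 genes were higher at day 42 in place of 300.

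H19 stood at 437, 177 and 266 CPM, with exact Poisson 95% intervals of 419 to 455, 170 to 184 and 244 to 288. In the other keratinocytes it stood at 17.5, 4.81 and 3.06 CPM, which gives log2 ratios of 4.02, 3.66 and 4.40. Among clusters with at least 50 cells, cluster 12 came next at day 0 (57.1 CPM, from 51 cells) and day 7 (22.9 CPM), and cluster 4 at day 42 (10.98 CPM). H19 was thus highest in cluster 9 on each day and fell there by 1.26 on the log2 scale from day 0 to day 7. Smoc2 stood at 291, 239 and 266 CPM against 25.7, 20.0 and 11.9 in the other keratinocytes. Its levels differed little between the days, and cluster 17 was next with 84.3, 85.9 and 119.6 CPM. All intervals given here cover counting error only.

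Gas1 stood at 189, 219 and 178 CPM in cluster 9 at day 0, day 7 and day 42. Cluster 17 was above it on each day, with 531, 366 and 576 CPM, so Gas1 did not single out cluster 9. Cluster 8 was below it with 151.5, 134.4 and 114.0 CPM. Hoxc8 stood at 101, 68.3 and 107 CPM, and cluster 17 followed with 57.7, 56.1 and 84.1 CPM. For Hoxc8 the lead over cluster 17 was therefore under 2-fold on each day. Fzd10 stood at 92.7, 63.7 and 72.1 CPM, above cluster 8 with 21.6, 19.5 and 25.3 CPM.

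Tnfrsf19 stood at 112, 41.7 and 97.4 CPM, with intervals of 103 to 121, 38.2 to 45.4 and 84.7 to 111. The day 7 library was the low one, with a log2 ratio of -1.24 to day 0, and day 42 was above day 7 by 1.06, which was under 2-fold with high doublet scores left out (0.99) and over cells with no neutrophil UMI (0.97). In cluster 4, where Tnfrsf19 was the next highest at day 0 and day 7, the levels were 22.5, 16.7 and 20.5 CPM. H19 and Tnfrsf19 were the only given markers past 2-fold between day 7 and day 0, and both were lower at day 7. With each cell thinned to 1000 UMIs the ratio of H19 was -0.95 and no longer past 2-fold, while that of Tnfrsf19 was -1.79.

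**Figure D1:**
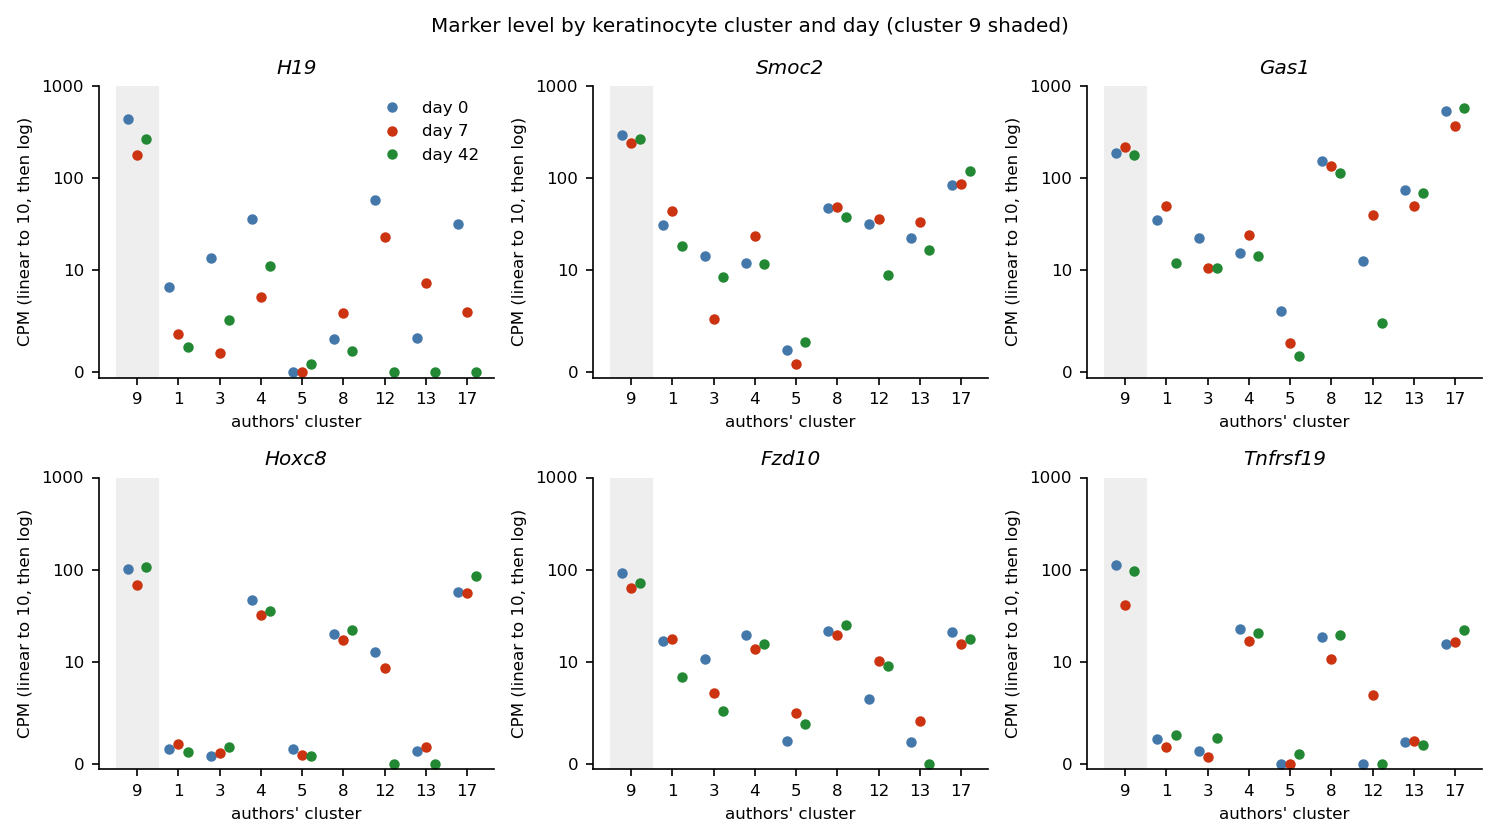
Level of each of the 6 markers (CPM, symmetric log axis that is linear below 10) in the 9 keratinocyte clusters with at least 50 cells on every day, 1 point per day. Cluster 9 is highest for 5 markers on each day, and cluster 17 is highest for Gas1 with 531, 366 and 576 CPM.

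Without thinning, most single cells of cluster 9 carried several of the markers. At least 3 of the 6 markers had a UMI in 77.7%, 79.4% and 52.0% of cluster 9 cells. In the other keratinocytes the shares were 7.46%, 5.67% and 1.02%. T cells, which should lack these genes and were shallower (medians of 2064, 2260 and 1393 UMIs), gave at most 0.457% on any day. With cells thinned to 1000 UMIs, at least 1 marker was seen in 63.6%, 52.5% and 59.2% of cluster 9 cells and in 16.3%, 10.6% and 5.29% of other keratinocytes. The share in thinned cluster 17 cells was 51.9%, 44.9% and 55.6%, nearer to that of cluster 9. At least 3 markers were seen in 7.72%, 2.68% and 5.92% of thinned cluster 9 cells. In thinned cluster 17 cells they were seen in 0.633%, 0.424% and 1.59%.

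Smoc2 was the marker found in most cells, with a UMI in 82.7%, 86.7% and 65.8% of them. H19 had a UMI in fewer cells, 59.2%, 53.2% and 45.0%, although its level was the highest of the 6 at day 0. At most 0.913% of T cells had a UMI of either gene on any day. The spread of H19 between cells was also wider. In cells thinned to 1000 UMIs, the variance of H19 counts was 1.496, 1.41 and 1.24 times their mean, against 1.03, 1.05 and 1.04 times for Smoc2. The tenth of cells with most H19 held 59.1%, 73.4% and 62.4% of its thinned UMIs, and the tenth with most Smoc2 held 48.9%, 52.2% and 52.4%. So the H19 UMIs were the more concentrated of the pair on each day.

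Across 27 pairs of keratinocyte cluster and day with at least 50 cells, the genes whose levels followed each marker most closely were ranked by Spearman correlation over 8852 genes. The points share libraries, and the coefficients are descriptions. For Hoxc8 the closest were Nbl1, which encodes a secreted BMP antagonist (0.90), and the neighbouring Hox genes Hoxc9 (0.89) and Hoxc6 (0.88). Smoc2 was followed by Kcnh1, a potassium channel gene (0.92), by the marker Gas1 (0.92) and by Thy1, a cell surface glycoprotein gene (0.89). For H19 the closest was Fam81a (0.92), and Itga2b (0.82) was next. Fzd10 was followed by Il20rb, Egln1 and Camta1 (0.92 to 0.91), Tnfrsf19 by Stim1, Gm16087 and Hoxc6 (0.92 to 0.90), and Gas1 by Ormdl3, Col16a1 and Dennd1a (0.94 to 0.93).

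Beyond the given markers, the genes leading cluster 9 on all 3 days were of varied kinds. The rule took the 20 genes with the highest lowest ratio to other keratinocytes over the days. Igfbp5, a secreted binding protein of insulin-like growth factors, stood at 234, 111 and 176 CPM against 29.3, 8.13 and 4.38 in other keratinocytes. At day 0 Igfbp5 was within 2-fold of its level in cluster 17. Il1r2, the decoy receptor of interleukin 1, stood at 194, 103 and 220 CPM against 12.9, 11.3 and 6.68. Tgm3, a transglutaminase of cornified envelopes and hair, stood at 330, 94.2 and 270 CPM against 31.7, 19.6 and 8.53. Tgm3 is known from late differentiation, yet its next cluster, cluster 4, had only 77.3 CPM at day 0; at day 7 the 2 clusters were close, with 92.5 CPM in cluster 4.

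Hpgd, which encodes the enzyme that inactivates prostaglandins, stood at 137, 371 and 208 CPM in cluster 9. It was shared with cluster 1, which had 99.9, 567 and 95.3 CPM, so cluster 9 was the lower one at day 7. Col17a1, the collagen of hemidesmosomes, stood at 1002, 607 and 760 CPM, above cluster 1 with 684, 512 and 476 CPM. Gpnmb, a transmembrane glycoprotein gene, stood at 440, 279 and 547 CPM, and cluster 1 exceeded it at day 7 with 390.3 CPM. The rest of the 20 were Sox6, a transcription factor gene, Slc6a6, the taurine transporter, Cdh13, a membrane-anchored cadherin, Mt2, a metallothionein, Nbl1, Gga2, Ccdc3, Fam213a and 1700025G04Rik, beside the markers H19, Smoc2, Fzd10, Hoxc8 and Gas1. Mt2 closed the 20, with 724, 834 and 736 CPM against 249.5, 346 and 197.

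Basal keratins and adhesion genes were high in cluster 9. Of 13 basal genes, 8 were at least 2-fold higher than in other keratinocytes at day 0 and 3 were at day 7 and at day 42; Col17a1, Mt2 and Dst, the gene of a hemidesmosome linker, were among them on each day. Of all genes tested, 1.53%, 1.2% and 2.96% were higher. Against cluster 1 alone, 2 of the 13 (Thbs1 and Mt2) were higher at day 0 and at day 7, with list medians of 0.36 and -0.20. Krt5 stood at 5045, 4561 and 4561 CPM in cluster 9, and at 1779, 2964 and 4310 CPM in the other keratinocytes. Krt14 stood at 9326, 10602 and 10746 CPM, against 3866, 9595 and 14599. The lead in both keratins was therefore seen at day 0, and at day 42 the log2 ratios were 0.08 and -0.44. In cluster 9 itself both keratins stayed within 2-fold across the days. The make-up of the other keratinocytes differed between the days, and its part in these ratios was not tested.

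Suprabasal and sebaceous genes were lower than in other keratinocytes to an extent that differed between the days. Of the epidermal suprabasal genes measured, 10 of 12 were at least 2-fold lower at day 0, 7 of 11 at day 7 and 5 of 12 at day 42. Krt10, the keratin of the epidermal spinous layer, stood at 370, 276 and 307 CPM against 3968, 1810 and 862. Of the mucosal suprabasal genes, 8 of 11, 8 of 10 and 10 of 11 were lower, among them Krt13 with 31.8, 40.7 and 80.9 CPM against 1616, 1305 and 3516. Krt17, a keratin of the follicle's outer root sheath and of stressed epidermis, stood at 32.3, 107 and 22.5 CPM against 1401, 2532 and 854. Sebaceous genes were lower in 10 of 11, 12 of 12 and 3 of 8. For comparison, 3.73%, 3.67% and 5.79% of all genes tested were lower in cluster 9 on the 3 days.

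Lists of follicle structures differed from each other. Of all genes tested, 3.73%, 3.67% and 5.79% were lower and 1.53%, 1.2% and 2.96% higher than in other keratinocytes. Of 10 outer root sheath genes 6, 6 and 5 were lower on the 3 days, with medians of -1.57, -1.83 and -1.55, and Krt5 and Krt14 were higher at day 0. Of 9 isthmus and infundibulum genes 5, 4 and 5 were lower, and of the hair shaft genes 5 of 5, 1 of 4 and 0 of 1. Of the bulge list, Krt15 and Col17a1 were higher and Lhx2, Sox9 and Postn lower at day 0, of 13 measured; at day 7 and day 42, Col17a1 was higher and 1 of 9 and 2 of 11 were lower. Of the inner root sheath list 6 of 8, 4 of 8 and 0 of 4 were lower, and Gata3 was higher at day 42. Lhx2, a factor of bulge stem cells, had 0.196 CPM at day 0 in cluster 9. None of the melanocyte and Schwann cell genes reached 5 CPM, and their 7 members summed to between 3.14 and 7.69 CPM. The expression profile of cluster 9 was closest to cluster 1 at day 0 (Pearson correlation of log2 levels across 10079 genes, 0.94) and at day 7 (0.95 across 9813 genes). At day 42 it was 0.90 with cluster 1 and 0.90 with cluster 8. Genes are not independent replicates, so these are descriptions.

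Against cluster 1 alone, some epidermal suprabasal genes were higher in cluster 9, and list medians were 0.16, 0.42 and 0.99. Krt10 stood at 90.4, 84.2 and 53.6 CPM in cluster 1, at least 2-fold below cluster 9 on each day. Of the list, 4 of 9 genes were higher in cluster 9 than in cluster 1 at day 0, 2 of 9 at day 7 and 5 of 10 at day 42, where 2.62%, 2.05% and 3.34% of all genes tested were. Krtdap was lower at day 0 and no member was at day 7 or day 42, against 1.4%, 1.49% and 4.63% of all genes. In cluster 4 Krt10 stood at 11244, 9913 and 8780 CPM, so the lower suprabasal level of cluster 9 depends on the clusters it is set against.

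**Figure D2:**
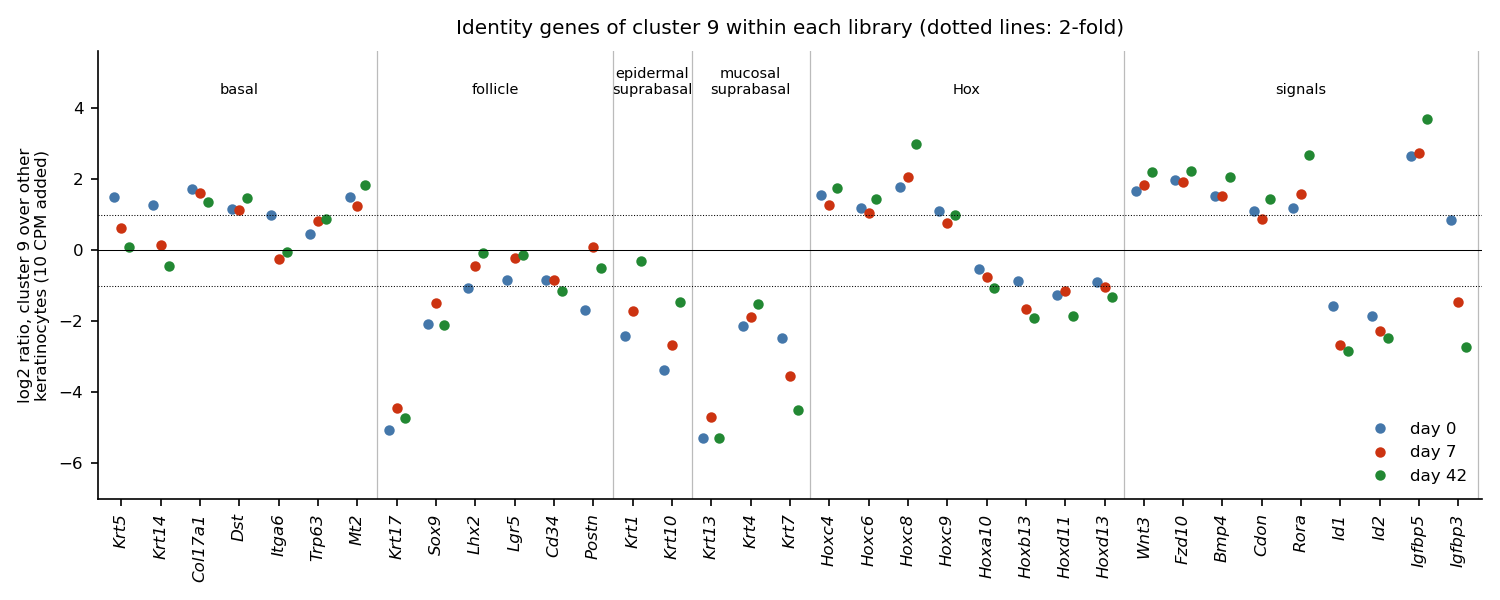
Log2 ratio of cluster 9 over the other keratinocytes (10 CPM added) for genes of the groups described, 1 point per day, with dotted lines at 2-fold. All basal genes drawn lie above 0 at day 0, Krt17 and the suprabasal keratins lie below 0 on each day, and Krt14 goes from 1.27 at day 0 to -0.44 at day 42.

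Some genes of position and signalling differed from the other keratinocytes, while most members of the Wnt, hedgehog and BMP lists did not pass 2-fold on most days. Of the Hox C genes measured, 4 of 6 were at least 2-fold higher than in other keratinocytes at day 0, 3 of 5 at day 7 and 4 of 5 at day 42; Hoxc4, Hoxc6 and Hoxc8 were so on each day. Among all genes tested, 1.53%, 1.2% and 2.96% were higher and 3.73%, 3.67% and 5.79% lower. Hoxc4 stood at 36.7, 18.7 and 27.1 CPM against 6.02, 1.93 and 1.13. Of the other Hox genes measured, 1 of 11, 3 of 9 and 4 of 13 were lower, and Hoxa7 was higher at day 42. Hoxd11, a posterior gene, stood at 2.94, 1.88 and 2.76 CPM against 20.8, 16.5 and 35.9. Hoxd11 was at least 2-fold lower on each day, and Hoxb13 and Hoxd13 were so at day 7 and day 42. In clusters 8 and 17 Hoxd11 was as low, at 2.27, 0.758 and 2.11 CPM and at 3.67, 1.36 and 4.43 CPM, while cluster 1 had 49.96, 34.2 and 47.3 CPM.

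Single clusters differed in these genes. In cluster 1, the most alike in overall profile at day 0 and day 7, Hoxc8 stood at 1.47, 1.93 and 1.21 CPM. Cluster 4 had 47.03 CPM of Hoxc8 at day 0, 32.01 at day 7 and 35.7 at day 42, so clusters 4 and 17 came nearer to cluster 9 in this gene than cluster 1 did.

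Among Wnt genes, the receptor gene Fzd10 was higher on all 3 days and Lgr6, an R-spondin receptor gene, at day 0, of 16, 15 and 14 receptors and co-receptors measured. The ligand gene Wnt3 stood at 59.6, 39.9 and 47.3 CPM against 12.04, 3.998 and 2.43, and cluster 4 was next with 31.4, 18.5 and 21.7 CPM. Wnt3a was past 2-fold at day 0 only, with 16.1, 7.06 and 10.1 CPM, and Wnt6 at day 42 only, with 25.5, 8.47 and 25.3 CPM. Sfrp1, a secreted Wnt antagonist, stood at 84.7, 117 and 100.1 CPM against 64.7, 45.5 and 18.6, past 2-fold at day 7 and day 42. Axin2, a common target of Wnt signalling, stood at 21.8, 10.7 and 21.1 CPM against 7.82, 3.33 and 3.59, past 2-fold at day 42 only. Calls on single days also depend on the make-up of the other keratinocytes, which differed between the days.

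Of 7 hedgehog genes measured, 2, 1 and 4 were higher than in other keratinocytes, with Gas1, itself a given marker, among them on each day. The shares over all genes were 1.53%, 1.2% and 2.96% higher and 3.73%, 3.67% and 5.79% lower. Cdon, a co-receptor with the same ligands, stood at 28.4, 14.9 and 27.6 CPM against 7.79, 3.70 and 3.77, past 2-fold at day 0 and day 42. Boc, a related co-receptor, and Smo, the signal transducer of the pathway, were past 2-fold at day 42, with 28.0 against 4.88 CPM and 88.2 against 38.2 CPM. In the BMP list the ligand gene Bmp4 stood at 45.3, 26.4 and 42.7 CPM against 9.31, 2.56 and 2.59, higher on each day. At day 0 Bmp4 was within 2-fold of its level in cluster 17. Id1 and Id2, targets of BMP signalling, were lower than in other keratinocytes on each day. Id1 stood at 68.2, 76.6 and 87.3 CPM against 222, 543 and 679.9. The ligand and these targets thus differed in opposite directions. Of 16, 18 and 17 BMP genes measured, 2, 2 and 3 were higher and 2, 4 and 6 lower. Among imprinted genes H19 stood alone at day 0, as 1 of 11 measured that was higher; Igf2, its neighbour in the imprinted domain, had 1 UMI at day 0 and none at day 7 or day 42 in cluster 9.

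Cluster 9 made up a smaller part of the keratinocytes on each later day. It held 17.97% of 3316 keratinocytes, then 11.1% of 9035 and 5.72% of 7970, with exact Clopper-Pearson 95% intervals of 16.7 to 19.3, 10.5 to 11.8 and 5.22 to 6.25. Shares add up to the whole, and clusters 1 and 5 held most keratinocytes at day 42. Among keratinocytes without clusters 1 and 5 the share was 21.4%, 12.1% and 16.4%, so the day 42 value was then between the others. Of all cells in a library it was 5.40%, 7.00% and 3.91%. Since 1 pool was dissected per day, the share and the amount of each region taken cannot be told apart.

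**Figure D3:**
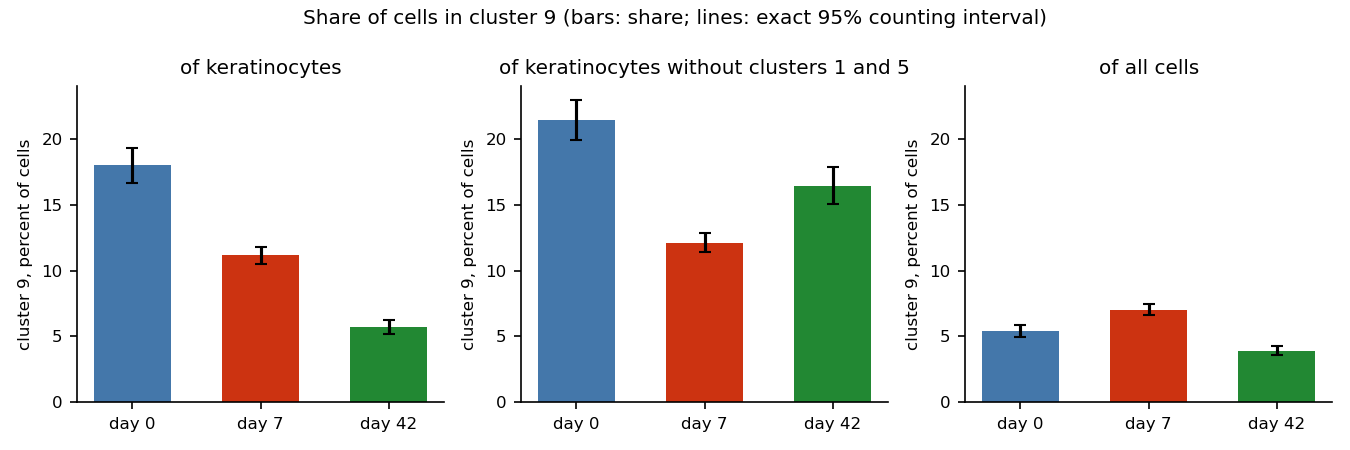
Share of cluster 9 (percent, with exact 95% intervals for counting error) at day 0, day 7 and day 42 with each of 3 denominators. The share of keratinocytes goes from 17.97% to 11.1% and 5.72%, and without clusters 1 and 5 in the denominator it is 21.4%, 12.1% and 16.4%.

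Within cluster 9, more genes separated day 7 from day 0 than day 42 from day 0. At day 7 against day 0, 71 of 9937 genes were higher (0.715%) and 81 lower (0.815%). At day 42 against day 0, 25 of 9922 were higher (0.252%) and 12 lower (0.121%). At day 42 against day 7, 54 of 9840 were higher (0.549%) and 58 lower (0.589%). With each cell thinned to 1000 UMIs the counts were 106 higher and 214 lower for day 7, and 69 higher and 196 lower for day 42 against day 0, so the balance at day 42 turned to lower genes and the gap between the days narrowed. The libraries differ in depth, so the clusters were also compared at 539345 UMIs per cluster and day, over genes of at least 50 CPM. At that depth 3.90% of genes in cluster 9 were past 2-fold for day 7 against day 0, 0.987% for day 42 against day 0 and 3.20% for day 42 against day 7. In cluster 1 the shares were 3.80%, 8.78% and 6.23%, so its day 42 library stood further from day 0. Clusters 4 and 8 gave 1.17% and 0.796% for day 42 against day 0.

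Krt15, a type I keratin of basal cells and a known marker of bulge stem cells, had the lowest ratio of all genes considered at day 7. It stood at 3310, 342 and 2504 CPM, with intervals of 3260 to 3360, 331.5 to 352 and 2438 to 2572. The day 7 library was low and the day 42 library near the day 0 level: the log2 ratios to day 0 were -3.24 and -0.40. Krt15 is on chromosome 11, minus strand, at chr11:100131758-100135928, and overlaps no other gene there. Its ratio at day 7 lay between -3.34 and -3.12 in all alternatives tried.

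The difference ran through the cells of cluster 9. In cells thinned to 1000 UMIs, 20.5%, 75.9% and 31.1% had no Krt15 UMI. Their median Krt15 count was 2, 0 and 2 of 1000 UMIs, and their mean 4.01, 0.414 and 3.17. Without thinning, 63.9% of day 7 cells held a Krt15 UMI at a median of 11748 UMIs, against 9.32% of T cells at 2260 UMIs. Krt5 and Krt14, the basal partners of the same cells, had log2 ratios of -0.15 and 0.19 for day 7 against day 0.

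Other keratinocyte clusters differed from each other in Krt15. Cluster 5 went from 4589 to 504 CPM at day 7 and 1108 at day 42. Cluster 3 went from 2647 to 548 and 1104 CPM, and cluster 1 from 3420 to 1582 and 1981. Cluster 17 stayed within 2-fold, with 2408, 2211 and 3015 CPM, as did cluster 8 (1214, 691 and 988) and, at a low level, cluster 13 (218, 190 and 267). A lower Krt15 at day 7 was thus seen in several clusters, and cluster 9 and cluster 5 had the lowest ratios, -3.24 and -3.16. The difference between clusters was not tested.

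**Figure D4:**
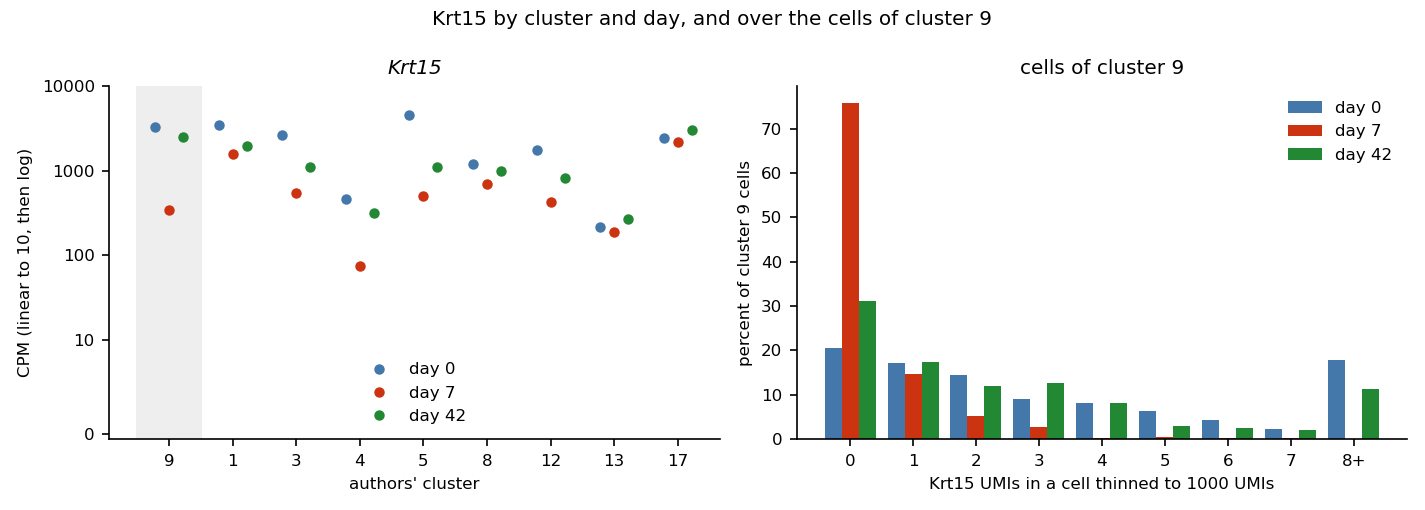
Left, Krt15 level (CPM, axis linear to 10 and logarithmic above) by keratinocyte cluster and day; right, percent of cluster 9 cells by their Krt15 UMIs after thinning to 1000 UMIs. Cells with no Krt15 UMI are the largest class at day 7, with 75.9% against 20.5% at day 0.

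Other genes with low ratios at day 7 encode chemokines, a mucin-like protein and a transglutaminase. Ccl27a, a keratinocyte chemokine, stood at 137, 16.3 and 63.4 CPM, with a log2 ratio of -2.48 at day 7 and -1.002 at day 42. Cxcl14, another epithelial chemokine, stood at 92.3, 7.06 and 33.1 CPM (-2.58 and -1.25). Fcgbp, which encodes a mucin-like secreted protein, stood at 197, 23.5 and 100.1 CPM (-2.63 and -0.91). For these 3 genes day 42 lay between the other days. Clca3a2, of the chloride channel accessory family, stood at 168, 36.3 and 110.2 CPM. Tgm3 was lower at day 7 by 1.71 on the log2 scale and past 2-fold in all alternatives, between -1.80 and -1.46. Igfbp5 was lower by 1.02, but under 2-fold in 6 of the alternatives. Epidermal suprabasal genes as a list did not share a direction: of 9 measured, Krtdap was higher (1.19) and Dsg1a lower (-1.44), with a median of 0.10.

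Zg16, a lectin gene of goblet cells, was also among the lowest at day 7, with 84.3, 3.92 and 4.59 CPM. Its day 0 UMIs sat in few cells, and 10 of them accounted for 95.3%. Without those cells its ratio was -0.10. Krt8, a keratin of simple epithelia, stood at 69.6, 12.9 and 19.3 CPM, and 10 cells accounted for 45.9% of its day 0 UMIs; without such cells its ratio was -1.37 in place of -1.80. Dcn, a fibroblast proteoglycan, stood at 58.4, 9.42 and 30.8 CPM, and 75.8% of its day 0 UMIs were in 10 cells, without which its ratio was -0.92 in place of -1.82. The 7 fibroblast markers summed to 140 CPM at day 0, 21.5 at day 7 and 33.1 at day 42 in cluster 9, and Lum, Pdgfra and Dpt had no UMI there at day 42; their part in the other values was not tested.

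Several immediate early genes, known to respond to tissue digestion, were lower at day 7. Of 16 genes on a list of dissociation stress, which also holds heat shock genes, 7 were at least 2-fold lower (Fos, Jun, Junb, Egr1, Atf3, Ier2 and Zfp36) and none higher. Among all genes 0.815% were lower. The list median was -0.74 against -0.06 over all genes. Jun stood at 352, 90.8 and 209 CPM and Fos at 409, 169 and 289. Without the 10 cells with most of the gene, the ratios of Fos (-0.91) and Junb (-0.84) were under 2-fold. In the other keratinocytes Jun stood at 273, 280 and 421 CPM, so the difference of day 7 to day 0 was not shared there. The handling of the 3 pools and the day cannot be told apart.

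The 3 genes with the highest ratios at day 7 were S100a9, S100a8 and Retnlg, which neutrophils express, at levels that other cell types also showed. S100a9, a calcium-binding antimicrobial protein gene, stood at 1.37, 1516 and 128 CPM in cluster 9. Its median over fibroblasts, endothelial cells, T cells and colonocytes of the same libraries was 0.315, 1442 and 201 CPM. S100a8, its partner, stood at 1.18, 1122 and 56.0 CPM against 1.95, 1199 and 102 in those classes. The same held for Retnlg, with 276 CPM at day 7 against 257.5. Of the 71 genes higher at day 7, 36 were at or below the median of these 4 classes, and so were 15 of the 25 higher at day 42.

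The 7 neutrophil markers summed to 3.53, 1474 and 83.6 CPM in cluster 9 and to 7.09, 681 and 60.9 in the other keratinocytes. With the mean of CPM per cell the day 7 order turned: the ratio to other keratinocytes was -0.50 for S100a9, -0.40 for S100a8 and -0.53 for Retnlg, and in thinned cells it was -0.24 for Retnlg. The genes Csf3r, Cxcr2, Mmp8 and Ngp had no UMI at day 0 in cluster 9. Over cells with no UMI of Retnlg, Ly6g, Csf3r, Cxcr2 and Mmp8, the ratio of S100a9 at day 7 was 3.84 in place of 7.07. At day 42, 10 cells accounted for 94.96% of its UMIs, and without them its ratio to day 0 was 0.73. S100a9 had a UMI in 60.7% of cluster 9 cells and 32.2% of T cells at day 7. After thinning to 1000 UMIs the shares were close, at 15.8% and 14.8%. Lcn2, a siderophore-binding antimicrobial gene, stood at 4.12, 123 and 3.67 CPM, below the 181 CPM of the 4 classes at day 7. Of 9 antimicrobial and inflammatory genes measured 7 were higher at day 7, among them S100a8, S100a9, Lcn2 and Cxcl2, against 0.715% of all genes. How far RNA from other cells enters these values was not tested further.

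Of the 71 genes higher at day 7, 35 stood above the median of the 4 other classes, BC100530 and Hpgd among them. BC100530, a stefin A gene of a family of protease inhibitors, stood at 170, 1164 and 261 CPM, with intervals of 159 to 181, 1146 to 1183 and 240 to 283. The 4 other classes had a median of 101 CPM at day 7. Its log2 ratio was 2.71, between 2.67 and 3.08 in all alternatives, and its 10 highest cells held 6.27% of the day 7 UMIs. BC100530 was also higher at day 7 in cluster 13 (2.58), cluster 17 (2.07), cluster 1 (1.58), cluster 4 (1.58) and cluster 8 (1.03). Its level was highest in cluster 4, at 1059, 3187 and 1314 CPM. Stefin A genes are near-identical copies, so reads may be split among them. Stfa1, another of them, stood at 24.7, 76.7 and 62.5 CPM.

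Hpgd rose from 137 to 371 CPM, a log2 ratio of 1.37, and the 4 classes had a median of 16.6 CPM at day 7. Krt6a, a keratin of wounded and mucosal epithelium, stood at 27.1, 151 and 75.8 CPM, with log2 ratios of 2.12 at day 7 and 1.21 at day 42. It was at or below the median of the 4 classes on each day (43.7, 197 and 423 CPM), and 53.4% of cluster 9 cells and 27.1% of T cells held a UMI of it at day 7 (10.6% and 12.96% after thinning). At equal depth the share was no higher than in T cells. Expression of Krt6a in cluster 9 and RNA from other cells were not told apart. Krt17 likewise lay below those classes at day 7, with 107 against 172 CPM. Of 16 wound and regeneration genes 3 were past 2-fold at day 7, Krt6a, Krt17 and Mmp9, against 0.715% of all genes higher. All 3 lay below the median of the 4 classes at day 7, Mmp9 with 12.9 against 19.04 CPM. A change of these genes in cluster 9 and RNA from other cells were therefore not told apart.

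**Figure D5:**
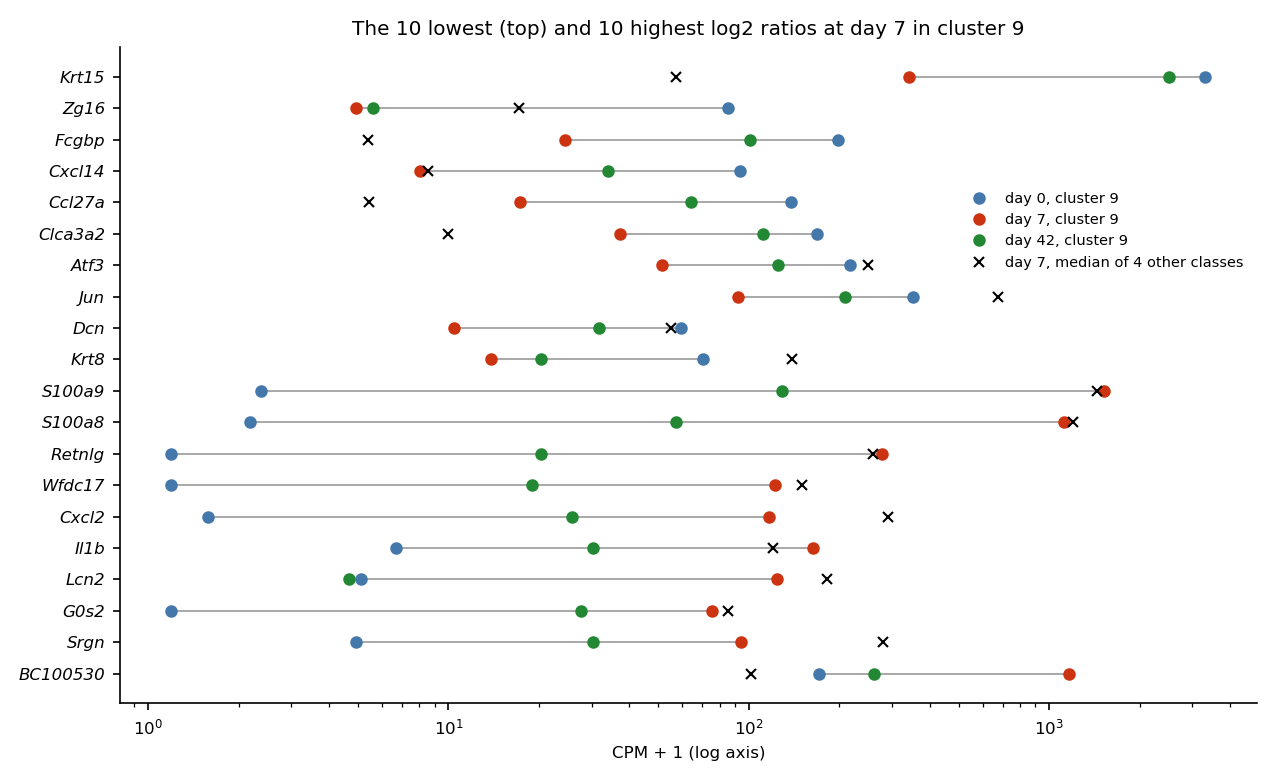
Levels (CPM + 1, log axis) of the genes with the highest and lowest log2 ratios at day 7 against day 0 in cluster 9, 1 point per day, with the day 7 median of 4 other cell classes. S100a9 and S100a8 lie near that median, at 1516 against 1442 and 1122 against 1199 CPM, while BC100530 lies above it, at 1164 against 101 CPM.

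Some interferon response genes stood above both earlier days at day 42. Isg15, an interferon-induced ubiquitin-like modifier, stood at 16.5, 8.24 and 74.0 CPM, with a log2 ratio of 1.67 to day 0. The median of the 4 classes was 50.7, 58.9 and 31.7 CPM, so cluster 9 was below it at day 0 and day 7 and above it at day 42. Isg15 at day 42 was 12.6 CPM in the other keratinocytes together and 41.5 CPM in cluster 8. Of 11 interferon genes measured 3 were past 2-fold higher, Isg15, Ifit1 and Oasl2, against 0.252% of all genes. The list median was 0.60 against -0.08 over all genes. Oasl2 stood at 4.51, 1.33 and 20.2 CPM, and Ifit1 at 2.35, 0.235 and 19.3 CPM. For Isg15, 10 cells accounted for 38.5% of the day 42 UMIs, and without such cells of each day its ratio was 1.70. The ratio of Oasl2 was 1.06, between 0.85 and 1.95 over the alternatives and under 2-fold in 3 of them.

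Psca, a surface antigen gene of mucosal epithelium, stood at 2.35, 2.28 and 62.0 CPM, with 71.7 CPM as the median of the 4 classes at day 42. In all, 10 cells accounted for 71.1% of its day 42 UMIs, and its ratio to day 0 was 2.54 with and 1.45 without them. Krt13 stood at 31.8, 40.7 and 80.9 CPM, below the 272 CPM of the 4 classes at day 42. Among the lowest at day 42 were Nr4a1, an immediate early nuclear receptor gene, with 53.1, 21.2 and 15.2 CPM, and Lars2, which encodes the mitochondrial leucyl-tRNA synthetase, with 502, 263 and 198 CPM. Lars2 had a similar course in the other keratinocytes, with log2 ratios of -0.90 and -1.44.

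A few clock genes, from a list added after the data were seen, were lower at day 7 than at day 0, and most of the list was within 2-fold. The circadian clock is a feedback loop in which activators bind E-box elements of DNA and switch on their own repressors; the D-box factors Dbp, Tef and Hlf and the repressor Nr1d1 are outputs of it. Nr1d1 stood at 84.3, 25.8 and 91.0 CPM, Hlf at 80.2, 33.1 and 80.9, and Dbp at 99.4, 50.8 and 139. For each of the 3, day 7 was the lowest day. At day 7 against day 0, 4 of 18 were at least 2-fold lower, namely Hlf, Nr1d1, Bhlhe40 and Bhlhe41, and none higher, where 0.815% of all genes were lower. Over the alternatives the ratio of Nr1d1 lay between -1.67 and -1.23, while those of Hlf, Bhlhe40 and Bhlhe41 came to -0.96, -0.67 and -0.88 at their smallest, so Nr1d1 alone was past 2-fold in all alternatives. The hour of dissection is not given in the sources used here, and it cannot be told apart from the day. Dbp overlaps Sphk2 and Nr1d1 overlaps Thra on opposite strands, with the same limit as for the markers.

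Compared with the other keratinocytes, Dbp, Hlf and Rora, a nuclear receptor gene of the clock, were at least 2-fold higher in cluster 9 on each day. Hlf stood at 15.4, 9.41 and 9.24 CPM in those cells, with a log2 ratio of -0.39 for day 7 against day 0. Nr1d1 there had a ratio of -0.98 and stood at 39.3, 14.97 and 58.9 CPM. Against cluster 1 alone, Dbp was not at least 2-fold higher at day 0 or day 7. Hlf was so at day 0 but not at day 7, and Rora was so on both days. Against cluster 8 at day 7, Rora alone of the list was higher.

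Promoter stretches of the clock genes Bhlhe41 and Tef are shown because they hold the E-box to which clock factors bind. Bhlhe41 encodes a repressor of the clock and stood at 27.1, 7.85 and 18.4 CPM, and Tef stood at 101, 62.1 and 116. The motif searched was CACGTG, which reads the same on both strands, in the window from 250 bases before to 50 bases after each RefSeq start site (GRCm38.p6). It occurs in the window of 5 of 16 clock genes with a promoter in the table (31.2%), namely Tef, Per1, Ciart, Cry1 and Bhlhe41, and in 8.09% of 27025 genes. Each stretch below has 86 bases, in the gene's direction, with the motif in capitals. That of Bhlhe41 is chr6:145865528-145865613, minus strand, with the motif 153 bases before the start site. Those of Tef, plus strand, belong to different start sites, at chr15:81802506-81802591 (127 bases before) and chr15:81811236-81811321 (138 bases before). A match is a description of the letters, not a measured binding site.
Bhlhe41: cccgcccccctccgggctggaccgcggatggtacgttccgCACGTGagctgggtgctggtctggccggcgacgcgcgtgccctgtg
Tef, first start site: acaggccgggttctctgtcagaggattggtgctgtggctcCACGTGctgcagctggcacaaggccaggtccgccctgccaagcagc
Tef, second start site: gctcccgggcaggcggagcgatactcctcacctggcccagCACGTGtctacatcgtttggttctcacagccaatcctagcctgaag

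Of 20 proliferation genes none was past 2-fold at day 7 or day 42 against day 0, where few of all genes were (0.715% higher and 0.815% lower at day 7), so this count says little about the list. Its medians were 0.09 and -0.24, against -0.06 and -0.08 over all genes. At day 42 against day 7, 3 were lower (Mcm3, Mcm5 and Rrm2, genes of DNA replication) against 0.589% of all genes, and 1 of 20 had a ratio above 0. Over cells with no Mki67 UMI the ratios of Mcm5 (-0.69) and Rrm2 (-0.53) were under 2-fold, as was that of Mcm5 in thinned cells (-0.77). Mki67, a marker of cycling cells, stood at 207, 200.5 and 175.5 CPM, and 158 of 596, 408 of 1007 and 74 of 456 cells held a UMI of it. Krt15 was lower in cells with a Mki67 UMI than in those without, at 2068 against 3943 CPM at day 0, 295 against 385 at day 7 and 1351 against 2873 at day 42. Smoc2 had the same order, with 223 against 326, 196 against 280.0 and 205 against 285 CPM. For H19 the order was not the same on all days: 479 against 415, 164 against 189 and 359 against 236 CPM. Cells with a Mki67 UMI were deeper, with median UMIs of 9532.5, 14217 and 6916.5 against 7312.5, 10680.0 and 4203.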

How the data were processed

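Single-cell RNA sequencing of 3 libraries, 1 per day, was analysed for the cells of cluster 9. The authors deposited unnormalized UMI counts, whole numbers for 31053 genes in each of 37080 cells. The deposited cell table gave each cell's day, cluster number and cell type name. Its size factor column, also deposited, is a ratio: each cell's total divided by it gave 5283.43 in all cells, the geometric mean of the totals, so the table follows the order of the matrix. Cell Ranger 3.0.2 and the build mm10 are named in the submitters' processing notes; the annotation, the filter on cells, any removal of doublets and the method of clustering are not given in the sources used here. Coordinates came from GENCODE M21 (GRCm38), which holds 99.6% of the identifiers, and sequences from RefSeq.

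UMIs were summed over the cells of a cluster and library and given as CPM, and log2 ratios were taken with 10 CPM added to both sides. Genes with at least 5 CPM on either side entered a comparison, and 2-fold was the rule for a call. Each day has 1 library, which allows no test; neither p-values nor standard errors are given. Intervals are exact 95% Poisson or Clopper-Pearson intervals, and where 0 UMIs were counted no fold is given. The scripts were tested on simulated data. No doublets were removed; dropping, per library, the top 5% of cells by Scrublet score, 18, 56 and 17 of them in cluster 9, was an alternative.

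Named were the 6 markers, 20 leading genes (at least 50 CPM on every day), the 10 highest and 10 lowest ratios of day 7 and of day 42 against day 0 (50 CPM or more on either day, leaving out Xist and genes that are Y-linked, mitochondrial or of ribosomal proteins, haemoglobins or immunoglobulins), members of 40 gene lists with at least 20 CPM in cluster 9 on any day, and the 3 genes most like each marker. The members, lists and rules were chosen with earlier results of these data known, and the clock and cholesterol lists were added after seeing the data. Lhx2, Hoxb13, Hoxd11, Hoxd13, Wnt3a, Id2, Igf2, Ifit1, Mmp9, Per1, Ciart, Cry1, genes named as overlapping another, and the members of marker lists given as having no UMI fall outside the rule and were named after their values were seen. Not all 20 genes of each day's ranking are described, and a few genes that the rule names are not reported here.

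The alternatives tried were a pseudocount of 1 CPM, the mean over cells of each cell's CPM, size factors by median of ratios, library totals that leave out ribosomal protein and mitochondrial genes, a cell filter (mitochondrial share up to 20%, 500 or more genes, 1000 or more UMIs), each cell thinned to 1000 UMIs, other filters on low genes, equal weight to the other clusters, a denominator without clusters 1 and 5, and each gene without the 10 cells with most of it. Chosen after seeing the data were cells with no UMI of Retnlg, Ly6g, Csf3r, Cxcr2 and Mmp8 (589, 805 and 448 cells), cells with no Mki67 UMI, and leaving out genes at or below the median of fibroblasts, endothelial cells, T cells and colonocytes. The tools were matplotlib 3.10.9, scanpy 1.11.5, scipy 1.17.1, pandas 2.3.3 and numpy 2.4.6 under Python 3.11.15.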

Additional observations from a re-analysis of the deposited data

Results flagged for a closer look

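For 4 genes the day difference in cluster 9 was past 2-fold in one direction and that in the other keratinocytes past 2-fold in the opposite one. With 1 library per day the difference between the cell groups was not tested, and the make-up of the other keratinocytes differed between the days. Igfbp3, a binding protein of insulin-like growth factors, had a log2 ratio of -1.01 for day 7 against day 0 in cluster 9 and 1.28 in the other keratinocytes, from 151, 69.9 and 123 CPM against 79.7, 209 and 873. Over the alternatives its ratio in cluster 9 lay between -1.31 and -0.90.

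Stfa1, a stefin A gene, had a ratio of 1.06 for day 42 against day 0 in cluster 9 and -1.48 in the others, and the former was 0.89 without the 10 cells with most Stfa1. Cxcl14 had a ratio of 1.34 for day 42 against day 7 in cluster 9 and -1.41 in the others, with 33.1 CPM against 18.7 at day 42. Without the 10 cells with most Cxcl14 the ratio in cluster 9 was 0.98. Slpi, a secreted protease inhibitor, had a ratio of 1.27 for day 42 against day 0 in cluster 9 and -1.83 in the others. All of its day 42 UMIs were in 10 or fewer cells, and its ratio was -0.05 with high doublet scores left out.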

How the results depend on the processing

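The alternatives moved counts of genes and many of the named values, and the causes were not tested. Of 706 named values against other keratinocytes, 398 left the range set by counting error with equal cluster weights and 390 in thinned cells. Thinning moved 241 of 712 day values in this way. Of 301 ratios to other keratinocytes past 2-fold, 251 stayed so with equal cluster weights and 268 in thinned cells. No paired analysis was possible because each day has 1 library. The share of keratinocytes was 11.97% at day 7 after the cell filter, and 21.39%, 12.12% and 16.44% on the 3 days without clusters 1 and 5. Counts below are higher and lower genes at 2-fold, day 7 against day 0 unless stated. With a pseudocount of 1 CPM they were 176 and 370 (day 42 against day 0: 80 and 181; day 42 against day 7: 280 and 260), and against other keratinocytes 410 and 766, 393 and 825, and 819 and 1142 on the 3 days. With at least 50 CPM they were 29 and 45 (then 7 and 6, and 25 and 24), and against other keratinocytes 92 and 200, 71 and 202, and 147 and 321. Totals without mitochondrial and ribosomal protein genes gave 110 and 126, 24 lower at day 42 against day 0, and 95 and 94 for day 42 against day 7, with 234 (day 7) and 565 (day 42) higher than in other keratinocytes. Thinned cells gave 214 lower, then 69 and 196, and 149 and 177. Above the median of the 4 classes were 35 and 50, then 10 and 4, and 29 lower at day 42 against day 7. High doublet scores left out gave 11 higher at day 42 against day 0, and equal cluster weights 178 higher than in other keratinocytes at day 42.

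Signs turned for few genes, most of them of neutrophils or myeloid cells. For day 42 against day 0 the log2 ratio was -0.30 for Il1b, -0.029 for Retnlg and -0.049 for Slpi with high doublet scores left out, and -0.25 for Il1b and -0.013 for Slpi over cells with no neutrophil UMI. Cd74 went to 0.062 when thinned and 0.077 over cells with no Mki67 UMI, and G0s2, day 42 against day 7, to 0.20 over cells with no neutrophil UMI. Against other keratinocytes at day 7, the mean per cell gave -0.52 for Il1b, -0.53 for Retnlg, -0.40 for S100a8 and -0.50 for S100a9, thinning gave -0.24 for Retnlg, and equal weights gave -0.16 for Igfbp4 at day 42. Of 127 day ratios past 2-fold, 120 kept their sign and 88 their 2-fold without the 10 cells with most of the gene, and at least 121 and 97 did in each of the others. Cluster 9 had its fewest UMIs at day 42, which limits genes of low level there.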

Other observations

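Enzymes of cholesterol synthesis, a list added after the data were seen, were lower in cluster 9 than in the other keratinocytes together, though not lower than in cluster 1 at day 0 and day 7. Of 24, 24 and 23 genes measured, 17, 16 and 16 were at least 2-fold lower than in other keratinocytes at day 0, day 7 and day 42 and none higher, with list medians of -1.45, -1.61 and -1.31. Of all genes tested, 3.73%, 3.67% and 5.79% were lower. Against cluster 1 alone 0 of 22, 0 of 23 and 11 of 23 listed genes were lower, and 1.4%, 1.49% and 4.63% of all genes. The list medians were -0.07, -0.15 and -0.996 against cluster 1, and -0.25, -0.45 and -0.33 against cluster 8. Idi1, the isopentenyl diphosphate isomerase, stood at 19.6, 54.9 and 13.8 CPM against 193, 410.5 and 128. Fdps, which encodes the next enzyme of the pathway, stood at 32.1, 83.9 and 26.6 CPM against 214, 335 and 197. Both were at least 2-fold higher at day 7 than at day 0 within cluster 9, as 2 of 23 genes. Of all genes tested 0.715% were so, and 22 of the 23 had a ratio above 0. Both calls were lost over cells with no Mki67 UMI (0.98 for Idi1 and 0.87 for Fdps), and that of Fdps in thinned cells (0.63). In the other keratinocytes their ratios were 1.05 and 0.62.

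Wound and regeneration genes were also lower than in other keratinocytes, in 9 of 16, 11 of 18 and 12 of 17 measured. The shares of all genes lower were 3.73%, 3.67% and 5.79%. Ly6a, a surface antigen gene, was higher at day 0, with 492.5 CPM against 238. Sparc, a secreted matrix glycoprotein of the same family as Smoc2, was higher on each day, at 118, 87.0 and 90.5 CPM against 25.7, 31.0 and 17.1. At day 0 Sparc was within 2-fold of its level in cluster 17. Igfbp2, another binding protein of insulin-like growth factors, stood at 457, 263 and 262 CPM against 344.5, 158 and 48.9, and was past 2-fold at day 42 alone. Krtdap, a gene of epidermal differentiation, stood at 189, 443 and 182 CPM in cluster 9, higher at day 7 by 1.19 on the log2 scale, and 10 cells accounted for 14.9% of its day 7 UMIs.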
